A study of Mus musculus with 5 samples.

Results

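The genes described here are 10 stress-response regulators that act with, after or in parallel to the transcription factor ATF4: Atf3, Atf5, Atf6, Atf2, Xbp1, Cebpb, Cebpg, Cebpd, Trib3 and Nupr1. They were taken by name, with no threshold on their values but with earlier results of these data known, from 52022 genes measured by RNA sequencing of interscapular brown adipose tissue (BAT), and all 10 passed the filter for testing (10 counts or more in 2 libraries or more), as did 16450 genes in all. The libraries came from 3 mice labelled ATF4 BKO and 2 WT mice, described as male, 10 to 12 weeks old and on a C57Bl/6J background. All were fed ad libitum and kept at 30 °C for 7 days and then at 4 °C for 3 days. ATF4 BKO mice carried floxed Atf4 alleles (ATF4 fl/fl) and Tg(Ucp1-cre)1Evdr, a Cre recombinase transgene under the Ucp1 promoter. The WT controls were ATF4 fl/fl littermates without Cre, so both groups carried the floxed allele, and an effect of the transgene cannot be told apart from that of the deletion. Ucp1 is the thermogenic uncoupling protein of brown adipocytes. The deletion was not directed at the other cells of the tissue, and Atf4 was not measured by cell type.

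ATF4 carries out much of the integrated stress response. In that response, kinases such as PERK, GCN2, PKR and HRI phosphorylate the initiation factor eIF2α, which lowers general translation and raises translation of Atf4. ATF4 is a basic leucine zipper (bZIP) protein and binds DNA as a dimer, often with a C/EBP protein, at composite C/EBP-ATF response elements (CARE). ATF3 and ATF5 are bZIP factors of the same response, and Atf5, like Atf4, is controlled at translation. TRIB3 is a pseudokinase that binds ATF4 and AKT, and NUPR1 is a small stress-induced chromatin-associated protein. ATF6 and XBP1 belong to the other arms of the unfolded protein response of the endoplasmic reticulum (ER): ATF6 is cleaved in the Golgi, and Xbp1 mRNA is spliced by IRE1. In adipose tissue, C/EBPβ and C/EBPδ are known as early adipogenic factors, and C/EBPβ also acts in brown adipocyte thermogenic gene expression.

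The sum of estimated counts per library lay between 24698337 and 31558111 for ATF4 BKO and was 30996438 and 32452751 for WT. Atf4 itself, the targeted gene, stood at 32.6, 52.6 and 23.5 CPM (counts relative to library size, scaled by TMM normalization) in ATF4 BKO replicates 1, 2 and 3 and at 286 and 226 CPM in WT replicates 1 and 2. Its log2 fold change was −2.82 ± 0.34 (SE), with an adjusted p of 0.671 in edgeR's quasi-likelihood test and of 9.72e-12 in DESeq2. In bulk tissue, fewer cells of a type and less RNA per cell cannot be told apart. Ucp1 was abundant in every library, between 9762 and 13076 CPM. ATF4 BKO replicate 1 goes against its male label, with 4598 counts of Xist, the non-coding RNA of X inactivation, against at most 7 in the others. WT replicate 2 stood apart by skeletal muscle markers, with a mean of 5.90 log2 CPM over the list against 1.72 in WT replicate 1 and between −1.48 and 0.38 in ATF4 BKO mice. Of 20 muscle markers tested, 17 were lower in every ATF4 BKO mouse, as were 10.6% of all genes. Values without ATF4 BKO replicate 1 and without WT replicate 2 are therefore given for several of the genes.

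Promoter windows were examined for the elements through which these factors act. RefSeq promoters of GRCm38.p6, covering 250 bases before to 50 after a start site, were at hand for 8 of the 10 genes, as 9 windows. Atf6 and Cebpd had no window. Both strands were searched for the CARE core (TGATGNAA), the cAMP response element or CRE (TGACGTCA), the unfolded protein response element or UPRE (TGACGTGG), the C/EBP palindrome (TTGCGCAA) and the ER stress response element, ERSE. The CRE and the UPRE share their first letters. The CARE core, present in 3.97% of 32851 promoters, matched once each in Atf3, Trib3 and Nupr1. The other elements, present in 1.79%, 0.676%, 0.183% and 0.119% of all promoters, had no match in the windows of these genes. The windows of Atf4 and of Ddit3, a gene that ATF4 induces, were searched as well and held none of the elements. Elements that lie outside a window were not searched for in any gene. The matches are shown with flanking bases, 30 bases each, since they are the only matches found in the 9 windows, and Chac1, a glutathione-degrading enzyme and target gene of ATF4, is added for comparison. Each is written 5′ to 3′ on the strand of its gene, with the CARE core, which lies on the opposite strand, in capitals.
Atf3: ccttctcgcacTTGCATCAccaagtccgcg
Trib3: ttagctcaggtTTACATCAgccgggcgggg
Nupr1: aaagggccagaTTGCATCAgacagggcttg
Chac1: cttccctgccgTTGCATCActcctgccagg
The Atf3 stretch, at chr1:191183425-191183454 on the minus strand, lies in an intron of Atf3-203, a transcript that starts farther upstream, and its match begins 103 bases upstream of the start of Atf3-201. In Trib3, at chr2:152344028-152344057 on the minus strand, the match begins 14 bases upstream of the GENCODE start of Trib3-201 and 15 bases after the RefSeq start. For Nupr1, at chr7:126625562-126625591 on the minus strand, the match lies 110 bases upstream of the RefSeq start, within an untranslated exon of Nupr1-201. Chac1 has its match at chr2:119351038-119351067 on the plus strand, 193 bases upstream of its start. A match of letters is a description and not a shown binding site.

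Levels were compared between genes per length, in TPM, which corrects for transcript length and sums to 1000000 in each library. Atf5 was the most abundant of the 10 genes in WT BAT, with 270 ± 66.9 TPM (SD, n = 2), above both Cebpb, at 61.4 ± 14.2 TPM (SD, n = 2), and all others in each WT mouse. The mean level of Atf5 over the 5 libraries exceeded that of 95.6% of genes tested. Xbp1 and Cebpg followed in WT mice at 41.4 and 40.9 TPM and did not differ beyond their spread. Nupr1, Atf3 and Trib3 had WT means between 33.6 and 36.1 TPM with overlapping values. Nupr1 and Trib3 lay below Cebpg in both WT mice, whereas Atf3 exceeded it in WT replicate 1, at 40.3 against 39.6 TPM. Atf2 and Atf6 were lower and overlapped each other at 21.7 and 18.7 TPM. Cebpd was the lowest, at 1.00 ± 0.092 TPM (SD, n = 2), and its mean over all libraries exceeded that of 24.7% of genes tested.

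**Figure D1:**
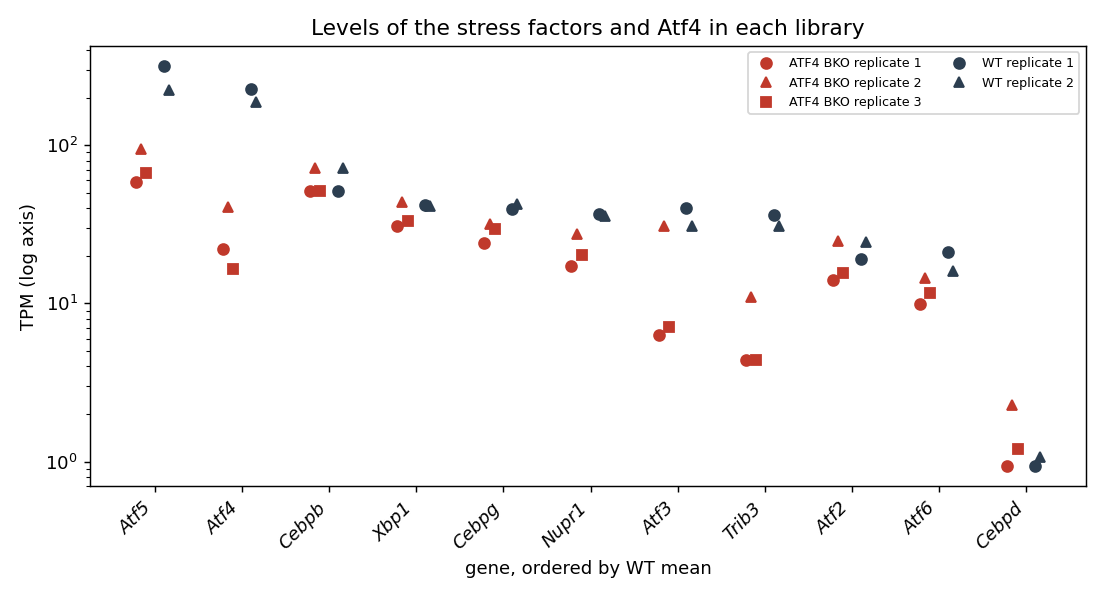
TPM of each gene in each library on a log axis, ordered by the WT mean, with ATF4 BKO mice in red, WT mice in dark blue and replicates by marker shape. Atf4, Atf5 and Trib3 are well below WT in each ATF4 BKO mouse, Atf3 in 2 of 3, and Cebpb and Atf2 overlap between groups.

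In ATF4 BKO mice Atf5 lay closer to the next gene, Cebpb, than in WT mice. Atf5 was again the highest on average, at 73.5 ± 18.7 TPM (SD, n = 3), but its range overlapped that of Cebpb, at 58.2 ± 11.5 TPM (SD, n = 3), although Atf5 exceeded Cebpb in each of the 3 mice. Below them, the ranges of neighbours in the order from Xbp1 at 36.1 TPM through Cebpg, Nupr1, Atf2, Atf3 and Atf6 to Trib3 overlapped one by one. Within each of the 3 mice, however, Xbp1 exceeded Cebpg, Cebpg exceeded Nupr1, Nupr1 exceeded Atf2 and Atf6 exceeded Trib3. Atf2 exceeded Atf3 in 2 of the mice, and Atf3 exceeded Atf6 in 1. Trib3 had rank 7 of 10 in WT and rank 9 in ATF4 BKO mice, at 6.56 ± 3.77 TPM (SD, n = 3). Cebpd was again the lowest, at 1.48 ± 0.72 TPM (SD, n = 3).

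Trib3 and Atf5 had the largest differences between genotypes. Trib3 stood at 7.11, 15.9 and 7.27 CPM in ATF4 BKO replicates 1, 2 and 3 and at 53.6 and 44.0 CPM in WT replicates 1 and 2. All 3 ATF4 BKO mice were far below both WT mice, with a mean of 20.7% of the WT mean. The log2 fold change of Trib3 was −2.27 ± 0.38 (SE), with an unadjusted p of 0.00092 and an adjusted p of 0.671 in edgeR's test and an adjusted p of 1.42e-05 in DESeq2. It was −2.08 without ATF4 BKO replicate 1 and −2.43 without WT replicate 2. Nearly all of its TPM, at least 91.0% in each library, was assigned to Trib3-201.

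Atf5 stood at 89.6, 127.9 and 99.8 CPM in ATF4 BKO replicates 1, 2 and 3 and at 419 and 281 CPM in WT replicates 1 and 2. The ATF4 BKO values were close to each other and averaged 30.2% of the WT mean. Its log2 fold change was −1.73 ± 0.23 (SE), with an unadjusted p of 0.00030 and an adjusted p of 0.671 in edgeR's test and an adjusted p of 1.71e-07 in DESeq2. Without ATF4 BKO replicate 1 it was −1.62, and without WT replicate 2 it was −2.00. Atf5 overlaps Nup62 and Il4i1 on the opposite strand, and 2.76% of its 31-base words occur in another gene, on the opposite strand.

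Most of the lower Atf5 level lay in the transcript with the upstream start. Atf5-201 stood at 30.9, 74.5 and 48.6 TPM in ATF4 BKO replicates 1, 2 and 3 and at 267 and 192 TPM in WT replicates 1 and 2. Atf5-202, which starts within the gene, had values of 28.0, 20.0 and 18.5 TPM in the ATF4 BKO mice and 49.6 and 29.9 TPM in the WT mice. Both transcripts were lower in every ATF4 BKO mouse, and Atf5-201 held 52.4% to 78.8% of the gene's TPM in ATF4 BKO against 84.3% to 86.4% in WT. Kallisto divides reads that fit both transcripts between them, so these shares are estimates, and no test was run on them. Neither of the Atf5 windows held any of the elements searched.

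**Figure D2:**
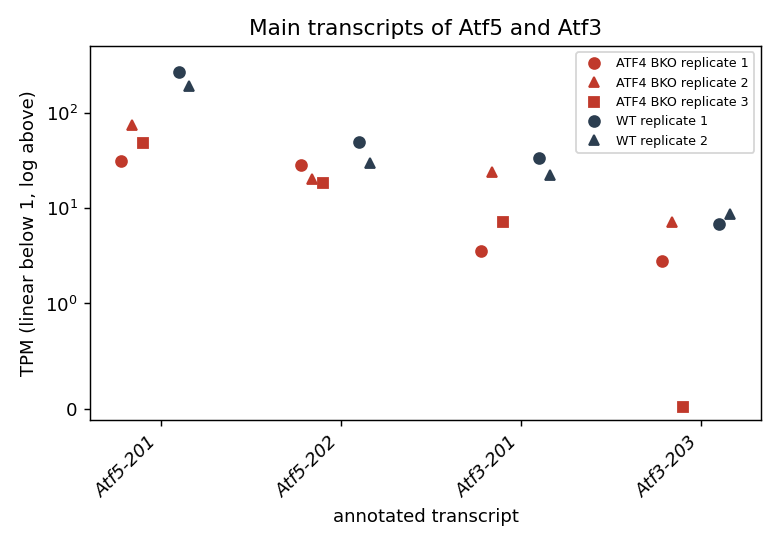
TPM of the main annotated transcripts of Atf5 and Atf3 in each library, on an axis that is linear below 1 and logarithmic above, with ATF4 BKO in red, WT in dark blue and replicates by marker shape. Atf5-201 and Atf5-202 are lower in each ATF4 BKO mouse, and Atf3-201 of ATF4 BKO replicate 2 lies between the WT values.

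Atf3 was low in 2 ATF4 BKO mice and at the WT level in the other. It stood at 10.6, 46.1 and 11.8 CPM in ATF4 BKO replicates 1, 2 and 3 and at 58.9 and 42.6 CPM in WT replicates 1 and 2. Replicate 2 lay between the WT mice, so the groups overlapped. The log2 fold change was −1.15 ± 0.65 (SE), with an adjusted p of 0.916 in edgeR's test and of 0.900 in DESeq2, and it was −2.16 without ATF4 BKO replicate 2, with an adjusted p of 0.482. Without ATF4 BKO replicate 1 it was −0.81 and without WT replicate 2 it was −1.39. The transcript Atf3-201, whose start lies nearest to the CARE core match shown above, stood at 3.52, 23.8 and 7.07 TPM in the ATF4 BKO mice and at 33.5 and 22.1 TPM in the WT mice.

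Ddit3, which encodes the C/EBP family member CHOP that ATF4 induces, was high in the same ATF4 BKO mouse. Ddit3 stood at 13.6, 49.9 and 16.0 CPM in ATF4 BKO replicates 1, 2 and 3 and at 28.5 and 39.3 CPM in WT replicates 1 and 2. ATF4 BKO replicate 2 had the highest value of all 5 libraries, and the other ATF4 BKO mice the lowest. Its log2 fold change was −0.36 ± 0.57 (SE), with an adjusted p of 0.963 in edgeR's test. It was −1.18 without ATF4 BKO replicate 2, −0.57 without WT replicate 1, and between −0.13 and −0.04 when any other library was left out. Of Ddit3, 6.78% of the 31-base words occur in other genes, including an overlapping gene model of the same name. Atf4 was at 20.5% of the WT mean in that mouse, against 12.7% and 9.17% in the other ATF4 BKO mice.

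The library of ATF4 BKO replicate 2 was the highest of the 3 ATF4 BKO libraries for 9 of the 10 genes, the exception being Cebpg, and for 43.5% of all genes tested. Trib3 was at 32.6% of the WT mean in it, against 14.6% and 14.9% in replicates 1 and 3. The same mouse had the highest summed level of 12 macrophage markers, 1487 CPM, against 882 and 536 CPM in the other ATF4 BKO mice and 222 and 1221 CPM in WT mice. The median log2 fold change of these markers was 0.38 and ranged from −0.27 to 2.89 over the alternatives. None of those markers was at 0 in any library, all 12 had positive log2 fold changes over all 5 libraries, and none separated the groups. Their part in the Atf3 and Ddit3 values was not tested.

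**Figure D3:**
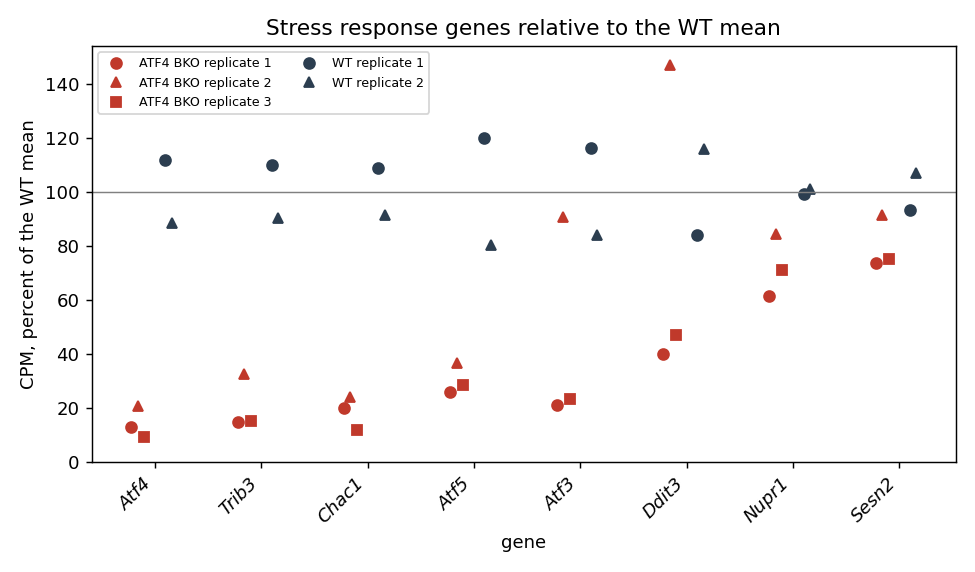
CPM of Atf4, 4 of the stress factors, Ddit3, Chac1 and Sesn2 in each library as a percentage of the WT mean (grey line at 100), with ATF4 BKO in red, WT in dark blue and replicates by marker shape. In ATF4 BKO replicate 2 (red triangle), Atf3 reaches 90.8% and Ddit3 147%, while Trib3 is at 32.6% and Atf5 at 36.5%.

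Nupr1 and Cebpg showed smaller differences that held in every mouse. Nupr1 stood at 8.52, 11.7 and 9.86 CPM in ATF4 BKO replicates 1, 2 and 3 and at 13.8 and 14.1 CPM in WT replicates 1 and 2. All ATF4 BKO values were below the WT values, which lay close together. The log2 fold change of Nupr1 was −0.47 ± 0.19 (SE), with an unadjusted p of 0.049 and an adjusted p of 0.911 in edgeR's test. It was −0.37 without ATF4 BKO replicate 1 and −0.47 without WT replicate 2. Its coding transcript Nupr1-201 held 37.7% to 42.7% of its TPM, and Nupr1-205, annotated as a nonsense-mediated decay transcript, 36.8% to 51.4%.

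Cebpg encodes a C/EBP protein without a classical activation domain that pairs with ATF4 on amino acid and antioxidant genes. Cebpg stood at 102, 101 and 114 CPM in ATF4 BKO replicates 1, 2 and 3 and at 128 and 131 CPM in WT replicates 1 and 2. Both groups were tight and did not overlap. The log2 fold change of Cebpg was −0.29 ± 0.12 (SE), with an unadjusted p of 0.053 and an adjusted p of 0.911 in edgeR's test, and it stayed between −0.35 and −0.24 when any 1 library was left out.

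Neither of the other C/EBP genes was lower in ATF4 BKO BAT. Cebpb stood at 64.9, 78.8 and 62.7 CPM in ATF4 BKO replicates 1, 2 and 3 and at 55.2 and 73.3 CPM in WT replicates 1 and 2. The groups overlapped, and the log2 fold change was 0.10 ± 0.18 (SE), with an adjusted p of 0.966 in edgeR's test and a sign that turned with library totals alone and on the TPM scale. Of the 31-base words of Cebpb, 19.4% occur in other genes, nearly all on the opposite strand in Tmem189, so part of its level is uncertain.

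Cebpd was the only one of the 10 genes with higher CPM in every ATF4 BKO mouse. It stood at 3.18, 6.87 and 3.97 CPM in ATF4 BKO replicates 1, 2 and 3 and at 2.72 and 2.98 CPM in WT replicates 1 and 2. The values rest on few reads, between 72 and 193 counts, and replicate 2 was far above the others. The log2 fold change was 0.71 ± 0.38 (SE), with an adjusted p of 0.911 in edgeR's test, and it was 0.35 without ATF4 BKO replicate 2. It was 0.93 without ATF4 BKO replicate 1 and 0.76 without WT replicate 2. In TPM the groups overlapped, at 0.93 in ATF4 BKO replicate 1 and 0.94 in WT replicate 1. Cebpd shares 14.2% of its 31-base words with Spidr on the opposite strand.

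Of the ER stress factors, Atf6 was lower in every ATF4 BKO mouse and Xbp1 was not. Atf6 stood at 67.0, 86.8 and 77.0 CPM in ATF4 BKO replicates 1, 2 and 3 and at 123.5 and 89.3 CPM in WT replicates 1 and 2. ATF4 BKO replicate 2 came within a few CPM of WT replicate 2. The log2 fold change of Atf6 was −0.47 ± 0.19 (SE), with an unadjusted p of 0.047 and an adjusted p of 0.911 in edgeR's test. It depended on WT replicate 1, with −0.20 without that mouse, −0.70 without WT replicate 2 and −0.38 without ATF4 BKO replicate 1.

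Xbp1 stood at 49.9, 63.5 and 53.8 CPM in ATF4 BKO replicates 1, 2 and 3 and at 61.5 and 56.0 CPM in WT replicates 1 and 2. The groups overlapped, and the log2 fold change of −0.07 ± 0.15 (SE) had an adjusted p of 0.970 in edgeR's test. IRE1 removes 26 bases from Xbp1 mRNA, and none of the 4 annotated Xbp1 transcripts skips that many bases of Xbp1-201. The removed stretch itself was not located in the transcripts, and splicing by IRE1 was not measured. Xbp1-201 held most of the TPM, between 77.4% and 87.5% in each library.

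Atf2, which is activated by stress kinases through phosphorylation and also acts downstream of p38 in thermogenesis, did not separate the genotypes. Atf2 stood at 50.1, 65.0 and 54.5 CPM in ATF4 BKO replicates 1, 2 and 3 and at 51.4 and 62.8 CPM in WT replicates 1 and 2. Its log2 fold change of −0.01 ± 0.17 (SE) had an adjusted p of 0.993 in edgeR's test and changed sign when some libraries were left out. Its reads were divided among 19 annotated transcripts, none of which held more than 30.7% of the gene's TPM in any library.

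**Figure D4:**
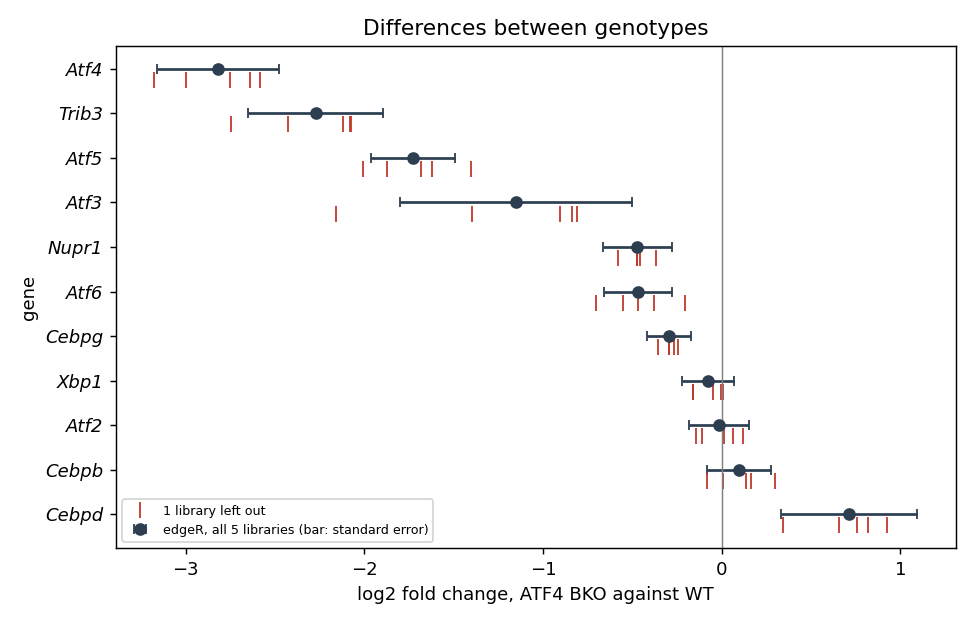
Log2 fold change of ATF4 BKO against WT for Atf4 and the 10 stress factors, with points and bars for the edgeR estimate and its standard error over all 5 libraries and red ticks for the estimate with 1 library left out. Trib3 and Atf5 stay at or below −1.40 in every case, Atf3 ranges from −2.16 to −0.81, and Xbp1, Atf2 and Cebpb sit around 0.

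Counted together, 8 of the 10 genes had negative and 2 positive log2 fold changes, with a median of −0.38 against 0.0077 over all genes tested. With edgeR, 0 of the 10 passed an adjusted p of 0.05, as 0.00608% of all genes did. At an unadjusted p of 0.05, 4 were lower in ATF4 BKO, namely Trib3, Atf5, Atf6 and Nupr1, against a background of 3.42%. With DESeq2, Trib3 and Atf5 were called lower, 2 of 10, against 0.608% of all genes. By CPM, 5 of the 10 were below both WT values in every ATF4 BKO mouse, namely Trib3, Atf5, Nupr1, Atf6 and Cebpg, where 10.6% of all genes were. Cebpd, 1 of 10, lay above both WT values in every ATF4 BKO mouse, as 8.95% of all genes did. With 3 against 2 mice, an exact permutation test of a single gene cannot go below p = 0.1 (one-sided).

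The labels' names begin with 1 of 2 prefixes, which they do not explain: WT replicate 1 shares the first with ATF4 BKO replicates 1 and 2, and WT replicate 2 shares the second with ATF4 BKO replicate 3. Within the first prefix the log2 CPM of Trib3 differed by −2.33, of Atf5 by −1.97 and of Atf3 by −1.41, and within the second by −2.59, −1.49 and −1.84. Atf6 differed by −0.70 and −0.21, Nupr1 by −0.46 and −0.51, Cebpg by −0.34 and −0.19, and Cebpd by 0.77 and 0.41. Each of these had the same sign within both prefixes, whereas Cebpb (0.37 and −0.22) and Atf2 (0.15 and −0.20) did not.

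Other bZIP genes were set beside the 10 to show where they differ. Of 41 further ATF, CREB, C/EBP, PAR, AP-1, CNC and small Maf genes, 39 were tested, with 19 lower, 20 higher and a median log2 fold change of 0.03, which ranged from −0.11 to 0.27 over the alternatives. At an unadjusted p of 0.05, 0 were lower and 2 higher, namely Crebl2 and Fos, where 1.81% of all genes were higher, and DESeq2 called 0. Crebl2 stood at 16.4, 15.3 and 18.2 CPM in ATF4 BKO mice and 10.7 and 13.0 CPM in WT mice, and its log2 fold change was 0.49 ± 0.17 (SE). Fos, the inducible AP-1 gene, stood at 13.2, 13.6 and 19.2 CPM against 3.51 and 9.35 CPM, with a log2 fold change of 1.25 ± 0.44 (SE) and an adjusted p of 0.911 in edgeR's test. The Fos value rested on the WT mice, with 0.73 without WT replicate 1 and 2.11 without WT replicate 2. Nfe2l1, an ER-bound CNC factor that drives proteasome genes in cold BAT, was lower in every ATF4 BKO mouse, with a log2 fold change of −0.31 ± 0.14 (SE), and Nfe2l2, the antioxidant regulator, overlapped at −0.07 ± 0.13 (SE). The adipogenic Cebpa overlapped as well, at 0.13 ± 0.26 (SE), and so did Trib1, a relative of Trib3, at −0.12 ± 0.16 (SE).

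Genes that the factors act on were then compared by lists of their targets, which were written with earlier results of these data known. Of 36 integrated stress response targets tested, 31 had negative log2 fold changes. In every ATF4 BKO mouse, 23 lay below both WT values and 0 above, where 10.6% and 8.95% of all genes did. At an unadjusted p of 0.05 in edgeR's test, 21 were lower, against 3.42% of all genes. DESeq2 called 12 lower, against 0.608% of all genes. The log2 fold changes of the 36 targets ranged from −3.57 to 1.19, and 0 of the 5 positive ones had an unadjusted p under 0.05. The median was −1.09, between −1.46 and −0.52 over the alternatives, the latter without WT replicate 1. Fgf21, a secreted metabolic hormone, stood at 1.24, 0.89 and 0.57 CPM in ATF4 BKO mice and 5.13 and 16.1 CPM in WT mice, which corresponds to −3.57 ± 0.57 (SE) on the log2 scale. The mitochondrial folate enzyme Mthfd2 had a log2 fold change of −3.33 ± 0.45 (SE), the glycine transporter Slc6a9 of −2.97 ± 0.57 (SE), the serine synthesis enzyme Phgdh of −2.81 ± 0.60 (SE) and Chac1 of −2.44 ± 0.36 (SE). Sesn2, a regulator of mTORC1, was lower in every ATF4 BKO mouse by less, at −0.32 ± 0.15 (SE). Without WT replicate 1, Slc6a9 was at −1.74 and Phgdh at −1.75. Fgf21 was at −4.16 without WT replicate 1 and at −2.53 without WT replicate 2.

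Targets of ATF6 and XBP1 had medians near 0. Of 16 ATF6 and ERSE targets, 12 had negative and 4 positive log2 fold changes, the median was −0.07 (between −0.25 and 0.29 over the alternatives), and 0 had an unadjusted p under 0.05. The ER chaperone Hspa5 stood at 356, 442 and 333 CPM in ATF4 BKO mice and 423 and 425 CPM in WT mice. Only 1 of the 16, Sel1l of ER-associated degradation, was lower in every ATF4 BKO mouse, against 10.6% of all genes. Its log2 fold change was −0.13 ± 0.12 (SE). Of 19 XBP1 targets, 8 had negative and 11 positive log2 fold changes, the median was 0.03 (between −0.14 and 0.12 over the alternatives), and 0 had an unadjusted p under 0.05. The co-chaperone Dnajb9 overlapped at −0.15 ± 0.26 (SE), the coat protein gene Sec23b was lower at −0.22 ± 0.13 (SE) and the retrotranslocation gene Derl2 higher at 0.12 ± 0.13 (SE) in every ATF4 BKO mouse. Among 7 tested stress sensors and activating proteases, 2 were lower in every ATF4 BKO mouse, where 10.6% of all genes were. These were the IRE1 gene Ern1 at −0.19 ± 0.15 (SE) and the PERK gene Eif2ak3 at −0.17 ± 0.14 (SE). Of the 7, 0 had an unadjusted p under 0.05.

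**Figure D5:**
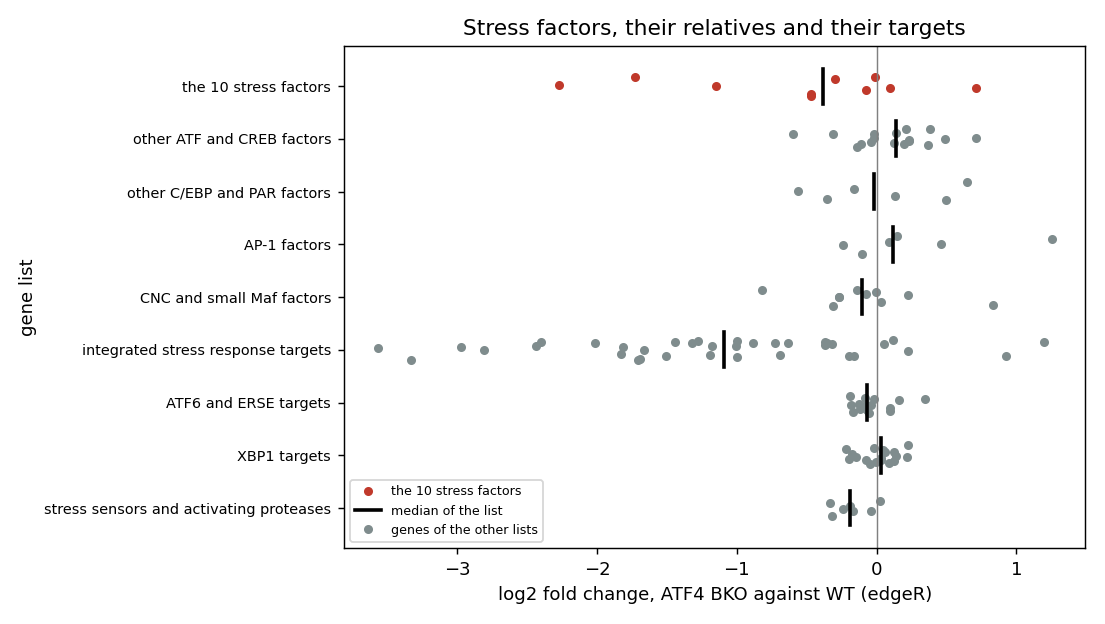
Log2 fold change of ATF4 BKO against WT (edgeR) for each tested gene of the 10 stress factors (red), of their bZIP relatives and of target and sensor lists (grey), with a black line at each list's median; vertical spread within a list has no meaning. The medians are −0.38 for the stress factors, −1.09 for integrated stress response targets, −0.07 for ATF6 and ERSE targets and 0.03 for XBP1 targets.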

How the data were processed

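Stranded mRNA libraries of BAT from 3 ATF4 BKO and 2 WT mice were counted by the authors with Kallisto 0.45.0 (mm10, per the labels and the study's methods). The authors deposited estimated counts per transcript, not normalized between libraries, and TPM, scaled to 1000000 per library. The annotation release and strand setting are not given in the sources used here.

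Both were summed per gene with GENCODE M21 (GRCm38). Of 141450 transcripts, 138191 matched by identifier, and the others held 1.16% to 1.29% of counts. Sums of estimated counts were rounded and compared with edgeR 4.0.16 (R 4.3.3): TMM, at least 10 counts in at least 2 libraries, quasi-likelihood test, Benjamini-Hochberg adjustment over all genes tested, threshold 0.05. The SE is the log2 fold change divided by the root of the F statistic. DESeq2 1.42.0, limma 3.58.1 on log2(TPM + 0.1) and log2(TPM + 1), other scalings, no filter, blocks, a muscle covariate and leaving out each library were alternatives. The fits were tested on simulated data. No library repeated another. p-values measure the spread between these libraries.

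The 10 genes and all lists were chosen with earlier results of these data known. Named are the 10 genes, Atf4, a fixed set, and from each list up to 4 genes with the largest differences whose groups did not overlap. No protein sequences were used.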

Additional observations from a re-analysis of the deposited data

How the results depend on the processing

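Of all genes, edgeR called 1 (0 lower, 1 higher). DESeq2 called 121 (100 lower, 21 higher), a muscle marker covariate 180 (9 lower, 171 higher), no filter beyond 1 count 8 (7 lower), limma on log2(TPM + 0.1) 2 (1 lower) and on log2(TPM + 1) 0 (0 higher), with 1431 at an unadjusted p under 0.05, against 860 in edgeR. The sample-name prefix block called 0 (0 higher), with 876 unadjusted. Leaving out 1 library gave 0 to 23 calls (0 to 22 lower, 0 to 1 higher), with 23 without WT replicate 1 and 0 without any 1 ATF4 BKO replicate. Of the 10 stress factors, DESeq2 called 2 and the fit without a filter 1 (Atf5). Their median was −0.58 and −0.56 on the 2 TPM scales, on which all genes had medians of −0.17 and −0.12, so relative to all genes it was −0.42 and −0.43, against −0.39 in edgeR. Counts higher in every ATF4 BKO mouse were 0 with length-scaled counts, 0 with library totals and 0 on both TPM scales, and 1 to 2 with 1 library left out (2 without WT replicate 2). Signs turned for Atf2 (0.37 with the muscle covariate, 0.0036 with the prefix block, −0.14 to 0.12 with 1 library left out), Xbp1 (−0.16 to 0.0053) and Cebpb (−0.0041 with library totals, −0.075 and −0.074 on the TPM scales, −0.080 to 0.30 with 1 library left out). Relative to all genes, Cebpb was between 0.05 and 0.09 under every scaling tried. The cause of these shifts was not tested. With the muscle covariate, Trib3 was at −2.03, Atf5 at −2.01 and Atf3 at −0.69.

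Same-numbered libraries correlated in their deviations by 0.0473 and 0.2004 over 2 pairs. The deviations of the 2 WT libraries from their mean mirror each other, so this check cannot settle whether same-numbered libraries were paired. With that replicate block 0 genes were called (0 higher), 697 had an unadjusted p under 0.05 with 1 residual degree of freedom, and Atf2 was at 0.0089.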

Other observations

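Of 20 skeletal muscle markers tested, 19 had negative log2 fold changes, with a median of −6.39. Marker genes of the tissue's other cells had mostly positive ones, whose sizes depended on the WT mice. Within the first prefix, median log2 CPM differences were 1.26 for fibroblast, 1.90 for macrophage and 0.91 for T cell markers. Within the second they were −1.03, −1.23 and −0.12. Those of endothelial and B cell markers were positive within both. All 7 endothelial markers were positive with a median of 0.34, and 3 were higher in every ATF4 BKO mouse, as were 8.95% of all genes: Tek, the angiopoietin receptor, at 0.45 ± 0.15 (SE), the adhesion molecule Pecam1 at 0.40 ± 0.16 (SE) and Tie1 at 0.34 ± 0.18 (SE), with 0 called at an adjusted p of 0.05 by edgeR or DESeq2 and 2, against 1.81% of all genes, at an unadjusted p under 0.05. Tie1 was at 0.13 without WT replicate 1 and at 0.58 without WT replicate 2. Fibroblast markers had a median of 0.51, B cell markers of 0.48 and T cell markers of 0.22, with 0 at an unadjusted p under 0.05. Without WT replicate 1 these medians were 0.17, 0.12 and −0.33, and without WT replicate 2 they were 0.96, 0.91 and 1.34. Without ATF4 BKO replicate 1 they were 0.28, 0.29 and 0.11, and without ATF4 BKO replicate 3 the fibroblast median was 0.78, and without ATF4 BKO replicate 2 the T cell median was 0.46. Of 13 brown adipocyte markers, 9 were positive with a median of 0.17, which was −0.03 on the TPM scales. Ucp1 was at 0.17 ± 0.24 (SE) with overlapping groups, and the secreted adipokine Adipoq, at 341, 287 and 379 CPM in ATF4 BKO mice and 203 and 256 CPM in WT mice, was at 0.55 ± 0.19 (SE), with an adjusted p of 0.911 in edgeR's test.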
